A study of Mus musculus with 40 samples.

Results

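Transcripts of 34 genes of myelin and the mature oligodendrocyte were measured in medial prefrontal cortex. All mice were female and wild type, of the common inbred strain C57BL/6J. The members were the rows of a table of raw read counts whose Ensembl gene identifier, with its version removed, belongs to 34 mouse symbols drawn up as a gene list. All 34 were found among the 56980 genes of the table, and all 34 had enough reads to be tested. Mice entered as adolescents, from postnatal day 25, or as adults, from postnatal day 55. At each age they stayed on water or received oral antibiotics (Abx), and for 5 days they had subcutaneous injections of saline or of morphine, an opioid agonist, at 15 mg/kg. This made 8 groups of 5 libraries, 40 in all. The groups are adolescent H2O Saline, adolescent Abx Saline, adolescent H2O Morphine and adolescent Abx Morphine, and the same 4 in adults, called below by their drink and injection. The sources used here do not name the antibiotics or the age at which tissue was taken. The labels do not say whether each library came from its own mouse, so the p-values measure the spread between these samples, part of which may be technical.

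Myelin is the multilayered membrane that oligodendrocytes wrap around axons. It is held compact by proteins such as the one encoded by Mbp, sealed by tight junctions of claudin-11 (Cldn11), and enriched in galactolipids made by the enzymes of Ugt8a, Fa2h and Gal3st1. Oligodendrocyte precursors leave the cell cycle, pass through a short premyelinating stage and then switch on the myelin genes under the transcription factors of Sox10, Olig1, Olig2, Nkx6-2 and Myrf. In rodent prefrontal cortex, myelination continues through adolescence into adult life. RNA was taken from whole tissue (cell type label All), so that fewer oligodendrocytes and less RNA per oligodendrocyte cannot be told apart in any value below.

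Sequence upstream of the start sites was read because the members rise and fall together between libraries (below) and SOX10 and MYRF are known regulators of myelin genes. RefSeq start sites on build GRCm38.p6 were at hand for 24 of the 34 members, with 35 windows of 250 bases before a start. The short SOX core ACAAAG, on either strand, was present in 25.7% of the member windows against 16.5% of the 32851 windows of all genes, and the variant ACAATG in 22.9% against 10.7%. CTGGCAC, the motif bound by MYRF, was present in 11.4% against 4.19%. These were only 4 of 35 windows, from 3 of 24 members, and overlapping windows of Mag share 1 match that is counted in each. ACAAAG and ACAATG were each found in 7 of 24 members. The 3 motifs do not overlap each other where they occur in the windows shown. At least 1 of them was found in 16 of 35 member windows, from 13 of 24 members, which is 45.7% against 28.4% of all windows. A match is a run of letters and not a measured binding site. Several genes have more than 1 window, and windows of neighbouring starts share bases. The 4 windows shown are those of Cnp and Mag, which hold both a SOX core and the MYRF motif, Mobp, which holds 6 SOX cores, and Plekhb1, a member that was higher in adults. They are written from 5′ to 3′ on the strand of the gene, with the motif letters in capitals.
Cnp, chr11:100574689-100574938, plus strand: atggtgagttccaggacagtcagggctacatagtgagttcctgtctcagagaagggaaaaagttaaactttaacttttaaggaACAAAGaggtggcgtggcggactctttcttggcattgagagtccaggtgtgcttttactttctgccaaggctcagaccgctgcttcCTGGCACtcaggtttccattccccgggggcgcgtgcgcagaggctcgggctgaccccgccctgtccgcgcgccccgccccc
Mag, chr7:30914864-30915113, minus strand: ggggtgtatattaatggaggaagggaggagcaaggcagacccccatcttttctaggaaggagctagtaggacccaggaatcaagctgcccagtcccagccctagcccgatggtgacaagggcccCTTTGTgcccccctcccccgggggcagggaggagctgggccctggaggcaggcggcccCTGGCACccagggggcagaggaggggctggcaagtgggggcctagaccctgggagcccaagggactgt
Mobp, chr9:120149492-120149741, plus strand: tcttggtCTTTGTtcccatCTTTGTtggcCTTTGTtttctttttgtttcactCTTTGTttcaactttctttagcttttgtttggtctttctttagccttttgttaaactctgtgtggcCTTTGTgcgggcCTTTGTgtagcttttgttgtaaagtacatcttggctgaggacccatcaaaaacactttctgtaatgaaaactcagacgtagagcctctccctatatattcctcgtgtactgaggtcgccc
Plekhb1, chr7:100656966-100657215, minus strand: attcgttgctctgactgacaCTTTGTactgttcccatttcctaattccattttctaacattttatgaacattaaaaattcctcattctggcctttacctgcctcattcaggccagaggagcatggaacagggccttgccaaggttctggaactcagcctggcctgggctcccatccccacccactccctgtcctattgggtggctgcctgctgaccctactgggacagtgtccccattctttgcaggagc
The Mobp window was 40.8% G and C and the Mag window 66% G and C, against a median of 52.4% over all windows, so base composition differs widely among the members. The median over the member windows was 57.2%. The windows of Cldn11 and Mal, and the other window of Plekhb1, held none of the 3 motifs. Hapln2, whose window is not shown, also holds the SOX variant ACAATG and the MYRF motif.

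Levels are given as CPM, the counts of a gene per M (mega) reads of its library, scaled by the trimmed mean of M-values. Total counts were 8.64 to 12.1 M per library, and 3 counts stood for 0.248 to 0.347 CPM, a limit that covers counting error only. Mbp was the most abundant member at a mean of 600 CPM over 40 libraries, with a range of 357 to 945 CPM. Enpp2, which encodes the secreted enzyme autotaxin, followed at 174 CPM and Cnp, whose product is a phosphodiesterase of non-compact myelin, at 107 CPM. The least abundant were Nkx6-2 at 3.15 CPM and Gjb1, which encodes the gap junction protein connexin 32, at 2.28 CPM, with 6 counts in the library where it was lowest. Per kilobase of annotated exon, a scale that allows genes to be compared, Mbp stood at 70.9 CPM, Qdpr, a pteridine reductase gene, at 36.1 and Olig1 at 35.7. Car2 (carbonic anhydrase 2) was at 31.2, Enpp2 at 30.1, Cnp at 29.5 and Cldn11 at 26.3 CPM per kilobase, while Aspa, the gene of the N-acetylaspartate-cleaving enzyme, was lowest at 0.786. Exon lengths came from a GENCODE annotation that is not the one used for counting. The exons of 13 of the 34 members overlap another gene in it, over 63.5% of the exon length of Trf and 54.2% of that of Pllp, and in the other 11 over at most 19.2%. The sources used here do not say whether counting used strand, so part of the reads of these genes may belong to the neighbour.

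The tissue carried cortical neuron markers at high levels, with the excitatory neuron list summing to 7750 to 9500 CPM over the 40 libraries. Ttr, the defining transcript of the choroid plexus, reached at most 0.868 CPM. The 34 members summed to 1367 to 2664 CPM per library. Each member's log2 CPM was set against its own mean over all libraries and averaged over the 34. By this measure adolescents on water and saline had a mean of 0.15 ± 0.27 (SD, n = 5) and ran from -0.19 to 0.53. Adults on water and saline had -0.14 ± 0.05 (SD, n = 5), the narrowest spread of any group. The other adolescents had -0.01 ± 0.19 when given antibiotics with saline, 0.01 ± 0.11 when given water with morphine and 0.1 ± 0.21 when given both treatments (SD, n = 5 each). The other adults had -0.13 ± 0.17 with antibiotics and saline, 0.07 ± 0.16 with water and morphine and -0.05 ± 0.25 with both treatments (SD, n = 5 each). Library 4 of adolescents on water and saline was the highest of all at 0.53, and library 1 of adults on antibiotics and morphine the lowest at -0.44. Except for the narrow group of adult controls, the spread within a group was about as wide as the distance between groups.

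**Figure D1:**
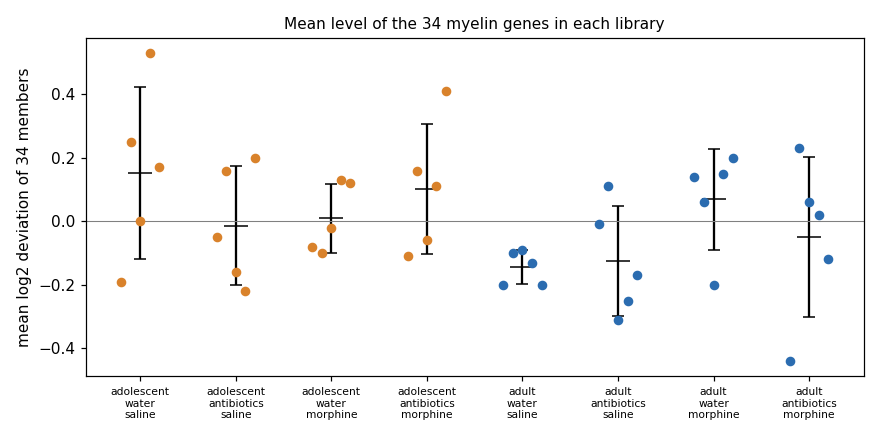
Mean log2 deviation of the 34 members in each of the 40 libraries (y axis, log2 units from each member's mean over all libraries) by group (x axis). Points are libraries, adolescents in orange and adults in blue, with the group mean as a long bar and 1 SD as the error bar. Adult water-saline libraries lie between -0.2 and -0.09, while adolescent water-saline libraries spread from -0.19 to 0.53.

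Most of this spread was shared. After the group means were removed, the 561 pairs of members had a median correlation of 0.53 over the 40 libraries, with a range of -0.06 to 0.94, and 320 pairs lay above 0.5. The libraries share depth, scaling and dissection with each other, so these values describe the libraries and carry no test. Mbp followed the mean of the other members most closely (r = 0.95), then Cldn11 (0.92), Cnp (0.91), Mag, an adhesion molecule of the innermost myelin layer (0.87), and Trf, the iron carrier transferrin (0.87). The transcription factor genes followed it less closely, with Olig1 at 0.67, Myrf at 0.66, Sox10 at 0.62, Olig2 at 0.56 and Nkx6-2 at 0.55. Loosest were Car2 (0.48), Hapln2, a link protein of nodes of Ranvier (0.47), Gsn, the actin-severing gelsolin (0.45), and Enpp2 (0.28). The SD of a member around its group mean had a median of 0.22 on the log2 scale, against 0.17 over all tested genes. Sirt2, a tubulin deacetylase gene, had the smallest at 0.09.

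Genes outside the list that followed the member mean were of more than one cell type. Over the same 40 residuals, Galnt6 had r = 0.87, Fads6 0.86, Scrt1 0.85, Cplx1 0.85 and Pvalb, the calcium buffer of fast-spiking interneurons, 0.84. Stac2, Hipk4, Nrgn, a postsynaptic protein gene of excitatory neurons, and Bcas1, a marker of early myelinating cells, each had 0.83. Only 2% of tested genes outside the list had r above 0.5. A list of 42 further tested genes of mature oligodendrocytes followed the members at r = 0.91 and the 12 inhibitory neuron markers at 0.65. The 15 premyelinating genes were at 0.42 and the 14 precursor genes at -0.17. As a list, the 13 excitatory neuron markers, Nrgn among them, were at -0.15. The inhibitory neuron list summed to 1010 to 1350 CPM in adolescents and 1010 to 1200 CPM in adults. Its part in the members' values was not tested.

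Adults had less of most structural myelin transcripts than adolescents. Averaged over the 4 treatments, 16 of 34 members were lower in adults and 2 were higher, so 52.9% of the members were called at an adjusted p under 0.05, against 17.9% of all 17880 tested genes (8.57% lower and 9.29% higher). The median log2 fold change of the members was -0.19, with 12 positive and 22 negative and a range of -0.48 to 0.21, where the median of all tested genes was 0.01. The 16 were spread over the roles: 9 of the 16 structural genes fell, 4 of the 9 genes of lipid and small-molecule enzymes and carriers, 2 of the 5 transcription factor genes and 1 of the 4 others. All log2 fold changes here are adult over adolescent, so a negative value means less in adults.

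**Figure D2:**
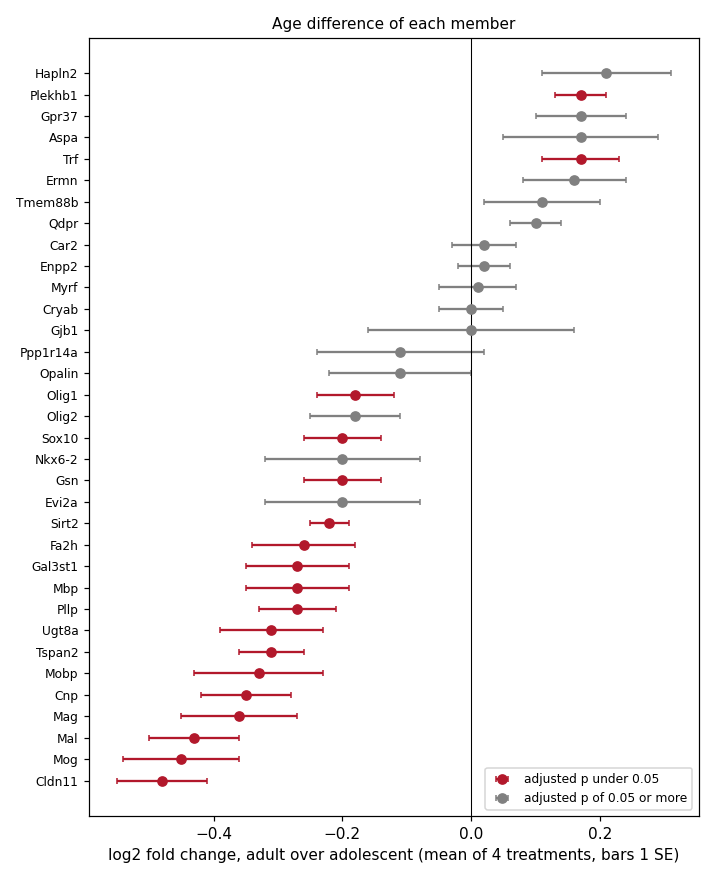
Log2 fold change of each member between adults and adolescents, averaged over the 4 treatments (x axis), with bars of 1 SE, for the 34 members (y axis). Red points passed the test at an adjusted p under 0.05: 16 lie left of 0, from Cldn11 at -0.48 to Olig1 at -0.18, and 2 lie right of it, Plekhb1 and Trf, both at 0.17.

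Cldn11 showed the largest age difference. Its level ran from 44.8 to 85 CPM (median 54.6, n = 20) in adolescents and from 29 to 61.4 CPM (median 37, n = 20) in adults, so that the ages overlapped only in part. The log2 fold change was -0.48 ± 0.07 (SE; adjusted p = 2.42e-05). Mal, a raft-associated membrane proteolipid gene, had 53.6 to 101 CPM (median 67.3) in adolescents and 37.6 to 79 CPM (median 50.1) in adults, a change of -0.43 ± 0.07 (SE; adjusted p = 1.61e-05). Mog, a surface protein of the outermost myelin lamella, changed by -0.45 (adjusted p = 0.000411), from a median of 17.5 to 12.6 CPM. Tspan2, a tetraspanin that is enriched in oligodendrocytes, ran from 44.9 to 75.5 CPM (median 54.2) in adolescents and 36.7 to 60.9 CPM (median 45.4) in adults, a change of -0.31 ± 0.05 (SE; adjusted p = 3.45e-06). Sirt2 changed by only -0.22 ± 0.03 (SE) but had the smallest adjusted p of the members (2.05e-06), with 89.6 to 117 CPM in adolescents and 77.6 to 102 CPM in adults. Its shift was small beside that of Cldn11, and its SD around the group means was the smallest of the members.

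Among the other structural genes, Mag (-0.36, adjusted p = 0.00554), Cnp (-0.35, 0.000279), Mobp, a basic protein of compact myelin (-0.33, 0.015), Mbp (-0.27, 0.0198) and Pllp, the proteolipid plasmolipin (-0.27, 9e-04), fell as well. All 3 galactolipid enzymes fell: Ugt8a, which adds galactose to ceramide, by 0.31 on the log2 scale (adjusted p = 0.00639), Gal3st1, which makes sulfatide, by 0.27 (0.0161), and Fa2h, which hydroxylates their fatty acids, by 0.26 (0.0141). Gsn was lower at -0.2 (0.0193). Of the transcription factors, Sox10 was at -0.2 (0.0239) and Olig1 at -0.18 (0.0258) and passed, while Olig2 at -0.18 (0.0734), Nkx6-2 at -0.2 and Myrf at 0.01 did not. The calls of Sox10 and Gsn were lost with limma-voom and that of Olig1 without a filter on low counts. The enzyme genes Car2 (0.02) and Enpp2 (0.02) did not pass.

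The members that went up with age were few. Plekhb1, which encodes a membrane-associated pleckstrin-homology protein, had 73.2 to 116 CPM (median 88.1) in adolescents and 86.7 to 121 CPM (median 100) in adults, a change of 0.17 ± 0.04 (SE; adjusted p = 0.0043). Trf was also at 0.17 ± 0.06 (SE; adjusted p = 0.0446), but its call was lost in 35 of the 40 fits that left out 1 library, with size factors of the RLE type (0.0547) and without a filter on low counts (0.119). The other positive members did not pass: Hapln2 at 0.21 (adjusted p = 0.14), Gpr37, a receptor gene of mature oligodendrocytes, at 0.17 (0.102), Aspa at 0.17 (0.36), Ermn, a cytoskeletal gene of late myelination, at 0.16 (0.196), Tmem88b at 0.11 and Qdpr at 0.1 (0.0536). Also uncalled were Cryab, a small heat shock protein gene, at 0, Gjb1 at 0, Opalin, a paranodal membrane protein gene, at -0.11, Ppp1r14a at -0.11 and Evi2a at -0.2. The other 17 called members kept their calls in all 40 fits that left out 1 library. Some uncalled members passed under other settings, each higher in adults. With limma-voom these were Hapln2 (0.0348), Gpr37 (0.0231) and Qdpr (0.0202). Gpr37 also passed without a filter on low counts (0.028) and Qdpr with the replicate number as a block (0.0433). Leaving out 1 library called Gpr37 in 2 and Qdpr in 4 of the 40 fits.

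Since the members rise and fall together between libraries, the ratio of 2 members within a library was also taken. These ratios were chosen after the values were seen and carry no test. Cldn11 over Plekhb1 was 0.46 to 0.779 in adolescents (median 0.643) and 0.325 to 0.582 in adults (median 0.401), and 16 of 20 adult libraries lay below the lowest adolescent one. Cldn11 over Trf was 0.774 to 1.33 in adolescents (median 1.02) and 0.488 to 0.851 in adults (median 0.628), with 19 of 20 adult libraries below the lowest adolescent one. For Mog over Trf 17 of 20 adult libraries did so, and for Mal over Plekhb1 13. By level alone, 13 of 20 adult libraries lay below the lowest adolescent one for Cldn11, 12 for Mog and 12 for Mal, and 1 and 0 lay above the highest adolescent one for Plekhb1 and Trf.

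**Figure D3:**
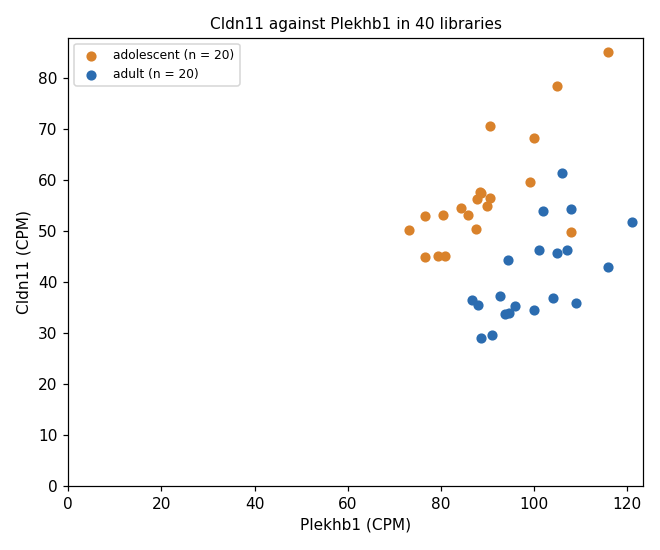
Cldn11 (y axis, CPM) against Plekhb1 (x axis, CPM) in the 40 libraries, with 20 adolescent libraries in orange and 20 adult libraries in blue. Within each age the 2 genes rise together, and all 20 adult libraries have a ratio below the adolescent median of 0.643.

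Within a single treatment the age difference rests on 5 libraries an age. The tests of whether it differed between treatments are given with the treatments below, and no member passed them with edgeR, DESeq2 or limma-voom on the genes each was given, while edgeR without a filter on low counts called 2 members for morphine on water. In mice on water and saline, 31 of 34 members were negative with a median of -0.3, and 5 fell, which is 14.7% of the members against 0.257% of all genes called, 0.179% lower. Cldn11 read 44.8, 59.6, 53, 85 and 49.7 CPM in the 5 adolescent libraries and 36.5, 35.2, 36.9, 33.9 and 35.4 CPM in the 5 adult ones, and the groups did not overlap. The change was -0.72 ± 0.15 (SE; adjusted p = 0.0239). Mal read 66.5, 73.1, 64.9, 101 and 58.6 CPM in adolescents and 43.4, 43.3, 48.1, 43.7 and 45.7 CPM in adults, again without overlap, at -0.7 ± 0.13 (SE; adjusted p = 0.00687). Tspan2 was at -0.45 ± 0.09 (0.0113), Fa2h at -0.75 ± 0.15 (0.00956) and Sirt2 at -0.29 ± 0.07 (0.0271), where brackets hold the adjusted p and errors are SE. Tspan2 and Sirt2 did not overlap between the ages, while Fa2h did. Mbp had 496 to 902 CPM in adolescents and 433 to 507 CPM in adults, overlapping, at -0.55 ± 0.16 (SE; adjusted p = 0.171). The count of 5 fell to 1 without adolescent library 2 or 4. It was 2 without adult library 2, 4 or 5, 3 without adult library 1, and 1 when only these 10 libraries were fitted. Mal was called in every one of these fits.

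On antibiotics and saline, 1 member was lower and 1 higher with age, or 5.88% of the members against 5.97% of all genes (2.79% higher and 3.18% lower), a share near the background. Cldn11 was at -0.53 ± 0.15 (SE; adjusted p = 0.0321), with 52.9, 54.8, 45, 45 and 57.4 CPM in adolescents and 34.5, 42.9, 29.5, 33.6 and 35.8 CPM in adults. Plekhb1 was at 0.3 ± 0.09 (SE; adjusted p = 0.0286), with 76.5 to 90 CPM in adolescents and 90.9 to 116 CPM in adults. Neither overlapped between the ages. Mbp was at -0.24 (0.439). The call of Cldn11 was lost without adolescent library 1, 2 or 5 or adult library 1, 3, 4 or 5, at up to 0.0904, and without a filter on low counts (0.0588). That of Plekhb1 was lost without adolescent library 1, 3 or 4 or adult library 1, 2 or 5, at up to 0.122. The count of calls ran from 0 to 4 over these fits, with 4 without adult library 2.

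On water and morphine, 0 of 34 members passed with edgeR, against 0.928% of all genes. An unadjusted p under 0.05 was found for 6 of 34 members and for 2549 of all 17880 tested genes. DESeq2 called 2 members, as did limma-voom, and leaving out adult library 3 gave 1. The median was 0.02, with 18 positive and 16 negative members. Plekhb1 was nearest to a call, at 0.32 ± 0.09 (SE; adjusted p = 0.0507), and Sirt2 at -0.13 ± 0.07 (SE; adjusted p = 0.345) had the smallest p of the negative members. Mbp was at 0.08 (0.882).

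On antibiotics and morphine, Tspan2 and Sirt2 fell, or 5.88% of the members against 1.04% of all genes (0.626% lower). Tspan2 read 62.1, 73.3, 65.3, 62.3 and 75.5 CPM in adolescents and 36.7, 60.9, 53.4, 50.3 and 52.5 CPM in adults, without overlap, a change of -0.41 ± 0.09 (SE; adjusted p = 0.0133). Sirt2 had 103 to 114 CPM in adolescents and 83.8 to 94.5 CPM in adults, also apart, at -0.29 ± 0.07 (SE; adjusted p = 0.0149). Mbp was at -0.35 (0.304). Both calls were lost without adult library 1, the library with the lowest member mean, at 0.0559 and 0.0523, and without adult library 2 there were 5 calls.

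Over all treatments the sign of the age difference was the same in every treatment for some members only. The group mean was lower in adults in 4 of 4 treatments for Cldn11, Mal, Mog, Cnp, Tspan2, Pllp, Sirt2, Gal3st1, Gsn, Evi2a, Sox10, Olig1 and Olig2. It was higher in 4 of 4 for Hapln2, Aspa and Qdpr, in part by much less than the SD. On water and saline Hapln2 had 4.55 ± 0.411 CPM in adolescents and 4.56 ± 0.604 CPM in adults (SD, n = 5 each). Aspa had 4.45 ± 1.77 and 4.52 ± 1.1 CPM there. Mbp, Mag, Mobp, Ugt8a and Fa2h were lower in 3 of 4, the exception being water with morphine in each.

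**Figure D4:**
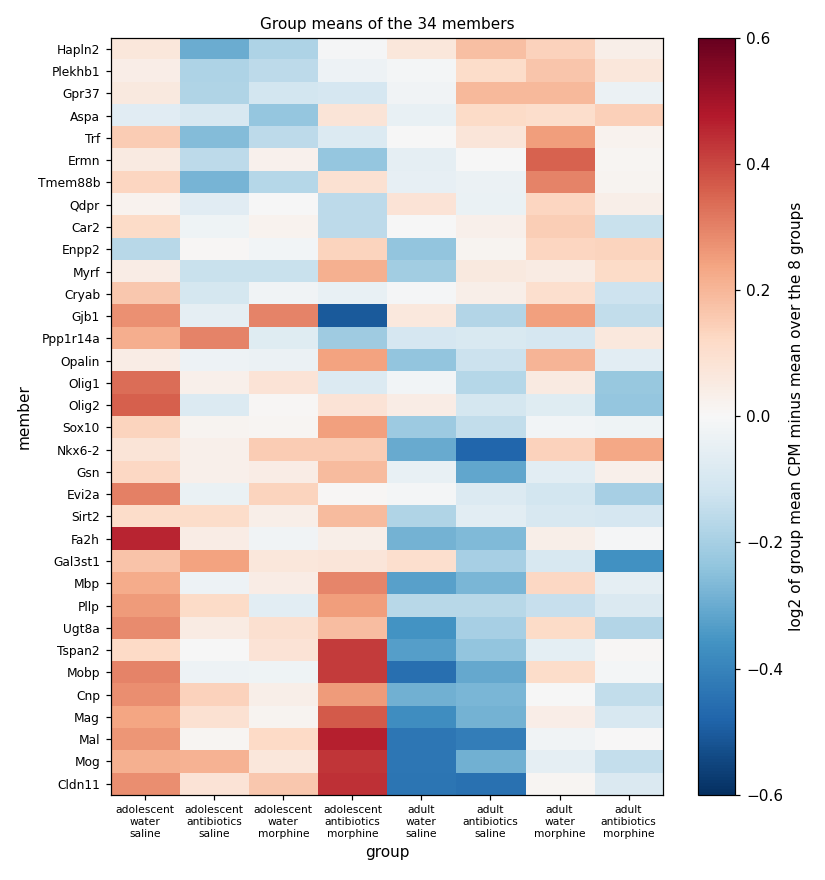
Log2 of the group mean CPM of each member (rows) minus its mean over the 8 groups (columns), with red for above and blue for below that mean. Members are ordered by their age difference, from Hapln2 (0.21) at the top to Cldn11 (-0.48) at the bottom, and the lower rows are mostly red in adolescents and blue in the 2 adult saline groups.

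Lists for other stages of the lineage are read against the 17.9% of all genes called in this comparison, 8.57% lower and 9.29% higher. Of 15 premyelinating genes 6 fell and 0 rose, led by Gpr17, a receptor gene of newly formed oligodendrocytes, at -0.58 (adjusted p = 3.07e-09), Mpzl1 at -0.41 (1.1e-06) and Enpp6, a marker of newly formed oligodendrocytes, at -0.73 (1.21e-05). The list summed to 391 to 493 CPM in adolescents and 352 to 437 CPM in adults. Of 14 precursor genes 2 fell and 0 rose, the 2 being Neu4 at -0.36 (0.00105) and C1ql1 at -0.23 (0.0444). Counted in either direction, this share was no larger than that of all genes. It was larger than the 8.57% of all genes that were lower. Of 42 further mature genes 8 fell and 3 rose. Those that rose were Il33, an alarmin cytokine gene, at 0.63 (1.6e-08), Ndrg1 at 0.26 (5.86e-05) and Anln at 0.44 (0.00405), and among those that fell was Gamt, which makes creatine, at -0.38 (0.000103). The counts of these lists carry no test of their own.

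The lists of this paragraph are likewise read beside 8.57% of all genes lower and 9.29% higher. On the axonal side, of 19 genes for axonal and paranodal partners of myelin, 6 rose with age and 1 fell, with 14 positive and a median of 0.1. Scn8a, the sodium channel of mature nodes, was at 0.12 (adjusted p = 0.01), Cntnap1, the paranodal Caspr, at 0.12 (0.0138) and Ank3, the ankyrin of nodes and initial segments, at 0.13 (0.0155), while Cadm4, an internodal adhesion molecule of glia, was at -0.17 (1.71e-05). Of 19 cholesterol synthesis genes 5 fell, among them Dhcr7 at -0.23 (0.000301) and Mvd at -0.26 (0.000457). The 18 sphingolipid and fatty acid genes had a median of 0.01, with 10 positive. Of 28 regulators of oligodendrocyte differentiation 4 rose and 1 fell, a share equal to that of all genes, with the smallest p in Igf1r, a growth factor receptor gene, at 0.31 (4.51e-09). Among other cell types, 4 of 14 endothelial markers fell, such as Itm2a at -0.26 (0.000267). Of 12 inhibitory neuron markers 2 fell, Npy at -0.4 (2.01e-05) and Sst at -0.3 (3.31e-05), and 2 rose, Vip at 0.13 (0.0325) and Reln at 0.15 (0.00867). Of 13 excitatory neuron markers 2 fell, Nrgn at -0.2 (0.000344) and Slc17a7 at -0.14 (3e-04), and 2 rose, such as Bcl11b at 0.21 (0.0426). Nrgn and the inhibitory list are among those that followed the member mean between libraries, while the excitatory list as a whole did not (r = -0.15). The 16 astrocyte markers had a median of -0.04, with 5 positive. The endothelial list summed to 391 to 635 CPM in adolescents and 394 to 572 CPM in adults, and the astrocyte list to 5040 to 8460 and 5220 to 7640 CPM. Their part in the members' age difference was not tested.

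Morphine was followed by more of 4 members when averaged over both ages and both drinks, and by less of none. The share called, 11.8%, stands against 4.35% of all genes called, with 2.54% of all genes higher. Enpp2 rose by 0.19 ± 0.04 (SE; adjusted p = 0.000798), Tspan2 by 0.23 ± 0.05 (SE; adjusted p = 0.00132), Mal by 0.29 ± 0.07 (SE; adjusted p = 0.00702) and Cldn11 by 0.26 ± 0.07 (SE; adjusted p = 0.037) on the log2 scale. The first 3 kept their calls in all 40 fits that left out 1 library, while Cldn11 lost its call in 33 of them and without a filter on low counts (0.0795). In adolescents on water the group means of Mal, Cldn11 and Tspan2 were not higher with morphine. Saline against morphine, they were 72.9 and 65.9 CPM for Mal, 58.4 and 53.8 CPM for Cldn11 and 54.9 and 53.5 CPM for Tspan2. In adolescents on antibiotics and in adults on either drink their means were higher with morphine. Mbp stood at 0.21 (0.159). The median of the 34 was 0.05, with 23 positive and 11 negative. All 19 axonal and paranodal partners were positive with a median of 0.07, and 5 of them rose, such as Scn8a at 0.14 (0.012) and Kcna1, a juxtaparanodal potassium channel gene, at 0.24 (0.0246). Of the 42 further mature genes 25 were positive with a median of 0.02, and Anln rose at 0.45 (0.0107).

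The lowest group means of Enpp2 were in mice on water and saline of both ages, 154 ± 17.4 CPM in adolescents and 147 ± 11.1 CPM in adults (SD, n = 5 each). The next were 171 ± 15.8 CPM in adolescents on water and morphine, 174 ± 12.3 CPM in adolescents on antibiotics and saline and 175 ± 22.3 CPM in adults on antibiotics and saline. Highest were 189 ± 11.2 CPM in adults on water and morphine and 190 ± 15.7 and 190 ± 12 CPM in adolescents and adults on antibiotics and morphine (SD, n = 5 each). The means of neighbouring groups in this order differed by less than the larger of their SDs. Averaged over the other factors, Enpp2 was also higher on antibiotics, by 0.15 ± 0.04 (SE; adjusted p = 0.0103), and it had no age difference that passed. Enpp2 is also a leading transcript of the choroid plexus. Of 8 choroid plexus markers, a list added after the data were seen, 7 were too low to be tested and at most at 1.19 CPM in any library, and the 8 together summed to 1.82 to 6.37 CPM. In adults on water, the sum ran from 3.02 to 5.51 CPM (median 5.4) with saline and from 1.82 to 4.07 CPM (median 2.73) with morphine. Most of it was Kl, the marker that could be tested, with medians of 3.12 CPM with saline and 1.61 CPM with morphine. Kl did not pass there (-0.89, adjusted p = 0.169).

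In adults on water, Enpp2 was the 1 member called between morphine and saline, or 2.94% against 0.475% of all genes (0.263% higher). It read 152, 140, 135, 143 and 163 CPM with saline and 209, 187, 183, 185 and 183 CPM with morphine, and the groups did not overlap. The change was 0.37 ± 0.08 (SE; adjusted p = 0.00795). The call was lost without saline library 2, 3 or 4 (0.0572, 0.054 and 0.0505) or morphine library 1 (0.078). Mbp read 433, 480, 507, 500 and 451 CPM with saline and 641, 621, 517, 761 and 699 CPM with morphine, also without overlap, but at 0.45 ± 0.16 (SE) its adjusted p was 0.251. In this comparison 30 of 34 members were positive with a median of 0.23, where the all-gene median was 0.01. Here 16 of 34 members and 1978 of all 17880 tested genes had an unadjusted p under 0.05. A fit of only these 2 groups called 7 members, and the share of all genes called by that fit is not given here. Of the 42 further mature genes, Slc44a1, a choline transporter gene, passed at 0.28 (0.0463). Of these 42 genes 29 were positive with a median of 0.11, and of 19 axonal and paranodal partners 18 were positive with a median of 0.16. The 14 precursor genes had a median of 0.05 and the 15 premyelinating genes of 0.04.

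In adolescents on water, morphine left 0 of 34 members called with edgeR, DESeq2 or limma-voom, against 0.319% of all genes with edgeR. When low counts were not filtered, edgeR called 1 member, Fa2h (adjusted p = 0.0464). Here 31 of 34 were negative with a median of -0.18. Of the members 6 had an unadjusted p under 0.05, and 2398 of all 17880 tested genes did. Fa2h had the smallest p at -0.48 ± 0.15 (SE; adjusted p = 0.16), with 11 to 20.1 CPM with saline and 10.2 to 12.1 CPM with morphine. Among the positive members it was Enpp2 at 0.15 (0.383), and Mbp was at -0.18 (0.648). The difference between the ages in the response to morphine on water was tested as its own contrast. It was positive for 33 of 34 members with a median of 0.36. There 17 of 34 members and 1788 of all 17880 tested genes had an unadjusted p under 0.05. After adjustment 0 members passed with edgeR, DESeq2 or limma-voom, and 0% of all genes did with edgeR. Without a filter on low counts edgeR called 2 members. Fa2h at 0.8 ± 0.22 (SE; adjusted p = 0.215) had the smallest p, and Gal3st1 at -0.08 was the 1 negative member. This contrast and the age comparison in water-saline mice share 10 libraries, so their values are not independent.

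On antibiotics, morphine raised Tspan2 and Mal in adolescents, or 5.88% of the members against 2.92% of all genes (1.58% higher). Tspan2 read 46.1, 52.8, 44.9, 51.1 and 57.8 CPM with saline and 62.1, 73.3, 65.3, 62.3 and 75.5 CPM with morphine, without overlap. The change was 0.42 ± 0.09 (SE; adjusted p = 0.00418) and was called in all 10 fits that left out 1 library. Mal read 54.3, 66.8, 53.6, 54.7 and 75.5 CPM with saline and 67.8, 88.5, 82.3, 80.2 and 99.3 CPM with morphine, overlapping, at 0.46 ± 0.13 (SE; adjusted p = 0.0433). Its call was lost without saline library 1, 2, 3 or 4 or morphine library 2, 3, 4 or 5, at up to 0.138, and without a filter on low counts (0.0921). Mbp was at 0.33 (0.308), and the median was 0.15 with 26 positive members. In the same comparison 6 of 19 cholesterol synthesis genes fell, such as Hmgcs1 at -0.46 (0.000482), and that list summed to 1120 to 1260 CPM with saline and 838 to 1040 CPM with morphine.

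In adults on antibiotics, 0 of 34 members passed between morphine and saline with edgeR, DESeq2 or limma-voom, against 0.213% of all genes with edgeR. An unadjusted p under 0.05 was found for 5 of 34 members and for 1257 of all 17880 tested genes. Mal at 0.42 ± 0.13 (SE; adjusted p = 0.358) and Car2 at -0.16 (0.819) had the smallest p in each direction, and Mbp was at 0.22. The log2 fold change of Mal was thus 0.46 in adolescents and 0.42 in adults. The age difference of the response to morphine on antibiotics had 0 members called by edgeR, DESeq2 or limma-voom, and 0% of all genes called with edgeR. For it, 0 of 34 members and 1151 of all 17880 tested genes had an unadjusted p under 0.05. The smallest p in each direction belonged to Ppp1r14a at 0.66 and Myrf at -0.28 (adjusted p = 0.801 each).

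**Figure D5:**
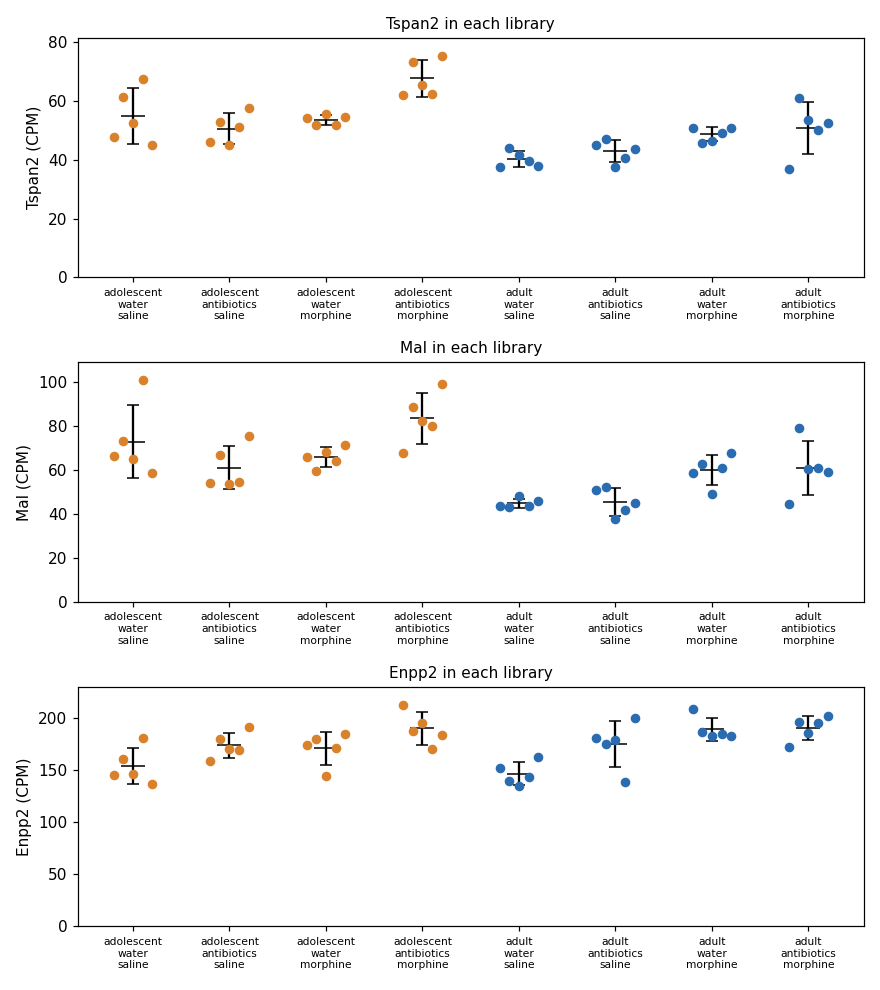
Tspan2, Mal and Enpp2 (y axes, CPM, from 0) in each library of the 8 groups (x axis), adolescents in orange and adults in blue, with the group mean and 1 SD. In Tspan2 all 5 adolescent antibiotics-morphine libraries (62.1 to 75.5 CPM) lie above the adolescent antibiotics-saline libraries (44.9 to 57.8 CPM), and in Enpp2 the adult water-morphine libraries (183 to 209 CPM) lie above the adult water-saline ones (135 to 163 CPM).

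Antibiotics alone, in mice given saline, left 0 of 34 members called at either age with edgeR, DESeq2 or limma-voom. When low counts were not filtered, edgeR called 1 member at each age, in adults Enpp2 (adjusted p = 0.045). In adolescents, where 0.0391% of all genes passed with edgeR, 30 of 34 members were negative with a median of -0.19. There 8 of 34 members and 1744 of all 17880 tested genes had an unadjusted p under 0.05. Trf had the smallest p at -0.41 ± 0.12 (SE; adjusted p = 0.228). It read 57.8, 68.6, 58.8, 87.8 and 58.8 CPM on water and 51.6, 53.5, 48.4, 40.6 and 55.3 CPM on antibiotics, and the groups did not overlap. Enpp2 at 0.17 (0.426) had the smallest p of the positive members, and Mbp was at -0.26 (0.618). In adults, where 0.0503% of all genes passed, 25 members were positive with a median of 0.05. Of the members 3 had an unadjusted p under 0.05, and 1801 of all 17880 tested genes did. Enpp2 was at 0.25 ± 0.08 (SE; adjusted p = 0.194), Gsn at -0.27 (0.448) and Mbp at 0.05, and leaving out adult antibiotics-saline library 4 gave 1 call. The difference between the ages had 0 members called by edgeR, DESeq2 or limma-voom against 0.0224% of all genes with edgeR. For this difference, 5 of 34 members and 1801 of all 17880 tested genes had an unadjusted p under 0.05. Plekhb1 stood there at 0.35 (0.293) and Gal3st1 at -0.36 (0.622).

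Under morphine, antibiotics raised Tspan2 and Myrf in adolescents. This was 5.88% of the members against 7.56% of all genes (3.54% higher), so the members were not called more often than genes at large. Tspan2 read 54.1, 51.7, 55.7, 51.7 and 54.4 CPM on water and 62.1, 73.3, 65.3, 62.3 and 75.5 CPM on antibiotics, without overlap, a change of 0.34 ± 0.09 (SE; adjusted p = 0.0135), lost without antibiotics-morphine library 2 (0.0551). Myrf, the transcription factor gene required for myelin gene expression, read 17, 16.8, 18.4, 17.2 and 22 CPM on water and 17, 28.3, 23.4, 20.7 and 27.1 CPM on antibiotics, overlapping, at 0.35 ± 0.11 (SE; adjusted p = 0.0456). Its call was lost without water-morphine library 1, 2, 3 or 4 or antibiotics-morphine library 2, 3 or 5, at up to 0.194, and with limma-voom (0.0941). Mbp was at 0.25 (0.369). This comparison shares its antibiotics-morphine libraries with that of morphine on antibiotics, so the high Tspan2 of that 1 group stands behind both. Beside it, 10 of 19 cholesterol synthesis genes fell and 1 rose, 2 of 16 astrocyte and 2 of 16 microglia markers fell, and 0 markers of those types rose. The astrocyte list summed to 5760 to 6660 CPM on water and 5040 to 6270 CPM on antibiotics, and the microglia list to 469 to 546 and 420 to 523 CPM. Their part was not tested.

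In adults under morphine, 0 of 34 members passed between antibiotics and water with edgeR, DESeq2 or limma-voom, against 0.028% of all genes with edgeR. An unadjusted p under 0.05 was found for 4 of 34 members and for 1434 of all 17880 tested genes. Car2 was at -0.28 (0.4), Gsn at 0.09 and Mbp at -0.18. The difference between the ages had 0 members called by any of these tools and 0.00559% of all genes called with edgeR. For this difference, 3 of 34 members and 1010 of all 17880 tested genes had an unadjusted p under 0.05. The smallest p in each direction belonged to Gjb1 at 0.41 (0.923) and Tmem88b at -0.54 (0.874).

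Averaged over ages and injections, antibiotics left Enpp2 higher, as given above, and Olig1 lower, or 5.88% of the members against 7.5% of all genes (3.27% higher and 4.23% lower). Olig1, a transcription factor gene expressed throughout the lineage, was at -0.23 ± 0.06 (SE; adjusted p = 0.0122). Its group means were 96.7 ± 17.2 against 78.2 ± 5 CPM in adolescents given saline, 81.1 ± 9.31 against 72.3 ± 12.7 CPM in adolescents given morphine, 75.7 ± 9.44 against 68.1 ± 4.83 CPM in adults given saline and 79.6 ± 12.7 against 65.5 ± 8.24 CPM in adults given morphine, each water against antibiotics (SD, n = 5 each). The mean was lower on antibiotics in all 4 pairs, although libraries overlapped. Mbp was at -0.03. The count of calls was 4 without adolescent antibiotics-morphine library 5. Of the surrounding lists, 10 of 19 cholesterol synthesis genes fell, such as Dhcr7 at -0.23 and Hmgcs1 at -0.22, with 1 higher, and 4 of 18 sphingolipid and fatty acid genes fell, such as Elovl5 at -0.21. Of 14 precursor genes 2 fell, Tnr at -0.12 and Xylt1 at -0.11, and of 42 further mature genes 3 fell, such as Gamt at -0.32. Of 16 astrocyte markers 7 fell, such as Aqp4 at -0.31, and of 16 microglia markers 3 fell, such as C1qa at -0.27. The shares of these lists and of the members were not compared by a test.

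Whether morphine acted differently with and without antibiotics was tested as an interaction at each age. In adolescents, 27 of 34 members were positive with a median of 0.36. There 13 of 34 members and 3025 of all 17880 tested genes had an unadjusted p under 0.05. After adjustment 0 members passed with edgeR, against 1.24% of all genes. Tspan2 was nearest at 0.46 ± 0.13 (SE; adjusted p = 0.0567), and the negative member with the smallest p was Gjb1 at -0.46 ± 0.43 (SE; adjusted p = 0.622). DESeq2 called 2 members, Mal (0.0284) and Tspan2 (0.0322), and limma-voom 1. Leaving out water-saline library 1 or antibiotics-morphine library 1 gave 2 calls, water-saline library 3 gave 1 and antibiotics-saline library 5 gave 3. In adults, 27 members were negative with a median of -0.16, and 0 passed with edgeR, DESeq2 or limma-voom, against 0% of all genes with edgeR. Of the members 4 had an unadjusted p under 0.05, and 1214 of all 17880 tested genes did. Gsn was at 0.36 (0.721) and Enpp2 at -0.25 (0.661).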

How the data were processed

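The authors deposited raw counts of reads per gene, not normalized, in 1 table for 40 libraries of polyadenylated RNA, whose column names were matched to the samples' labels. The extraction kit was an RNeasy Mini kit, per the labels' protocols. STAR 2.7.10a, DESeq2 and the build mm10 are named, per the submitters' processing notes, without their roles, and the sources used here do not give the annotation or strand setting of the counts. Identifiers were matched to symbols without their version for 52073 of 56980 genes (91.4%).

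Counts were analysed with edgeR 4.0.16 in R 4.3.3. Genes were kept by filterByExpr (minimum count 10, minimum total 15), which left 17880 genes with 99.75% to 99.82% of each library's counts, and libraries were scaled by TMM. A robust quasi-likelihood model with 1 coefficient per group was fitted to all 40 libraries, and 21 contrasts were tested by two-sided F tests with Benjamini-Hochberg adjustment over all 17880 genes. A called member, one that "rose", "fell" or "passed", has an adjusted p under 0.05. The SE is the log2 fold change divided by the square root of F, and means and SDs are of CPM. The common biological coefficient of variation was 9.14%. Over the 21 contrasts, 47.4% to 53.3% of all tested genes had a positive log2 fold change. An adjusted p is edgeR's where no other tool stands beside it, also where a bracket holds a p alone.

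The rule for named genes took every called member in full (the 10 with the smallest p where more were called), the member with the smallest p in each direction where none was called, Mbp throughout, called genes of 14 lists of cell types and pathways, and the 10 outside genes most correlated with the member mean. The text names a part of the list genes. For some of these genes the results are not reported here. The members and lists were chosen with earlier results of these data known.

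Alternatives were RLE size factors, no filter on low counts, at least 1 CPM in 5 libraries, DESeq2 1.42.0 on all deposited genes, limma-voom (limma 3.58.1) with sample quality weights, a fit limited to the compared groups, a block of the replicate number within age, and leaving out each library in turn. The fitting script was tested on simulated data. The chi-square per gene between replicate libraries was 2.16 to 15.3, and none was treated as a duplicate.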

Additional observations from a re-analysis of the deposited data

Results flagged for a closer look

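Within groups of 5, the gap of the highest or lowest library to its neighbour was compared with the range of the group for 20 members and for the member mean, which made 168 tests of which chance flags about 5%. There were 5 single libraries that stood apart. Fa2h was at 12.1 CPM in library 4 of adolescents on water and morphine, where the next library was at 10.4 CPM. Trf was at 74.1 CPM in library 5 of adolescents on antibiotics and morphine, next to 55.9 CPM, and at 74.5 CPM in library 2 of adults on antibiotics and saline, next to 61.2 CPM. Cnp was at 97.6 CPM in library 3 of adults on water and saline, next to 86.1 CPM. Enpp2 was at 209 CPM in library 1 of adults on water and morphine, next to 187 CPM, and without that library its difference from saline was no longer called (adjusted p = 0.078).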

How the results depend on the processing

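The average age difference had 17 to 20 members called when any 1 library was left out and under the 6 other settings, against 18. Morphine on antibiotics, antibiotics under morphine and the interaction in adults, and the differences between the ages other than that of morphine on water, had 0 calls under every setting run. Averaged over the other factors, morphine gave 3 to 5 calls against 4, and antibiotics 2 to 4 without single libraries against 2. Single comparisons of 5 against 5 libraries moved more. Leaving out 1 library gave 1 to 7 calls for age in the water-saline groups, 0 to 4 in the antibiotics-saline groups, 0 to 1 in the water-morphine groups and 0 to 5 in the antibiotics-morphine groups. It gave 1 to 3 for morphine on antibiotics in adolescents, 0 to 1 for morphine on water in adults, 0 to 2 for antibiotics under morphine in adolescents, 0 to 1 for antibiotics with saline in adults and 0 to 3 for the adolescent interaction. DESeq2 called 9, 4, 2 and 5 members for age in these 4 pairs of groups, in the same order, and 2 for the adolescent interaction. Limma-voom called 2 for age on water and morphine, 1 for the adolescent interaction and 5 for antibiotics on average. A fit of only the compared groups called 1, 8 and 2 for age in the water-saline, antibiotics-saline and water-morphine groups, 6 for antibiotics under morphine in adolescents and 7 for morphine on water in adults. With no filter on low counts there was 1 call each for age on water and morphine, for morphine on water and on antibiotics in adolescents and for antibiotics with saline at both ages, 2 for morphine on water in adults and for its difference between the ages, 3 for the adolescent interaction and 4 for antibiotics on average. The share of all genes called under each of these other settings is not given here. Their counts of members thus have no background beside them, and a setting may call more genes at large. The cause of these changes was not tested. RLE size factors shifted the median of all genes by at most 0.012 on the log2 scale.

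Members near 0 changed sign in the average age difference: Gjb1 (0.04 with the replicate block, 0.11 with limma-voom, -0.06 to 0.09 without single libraries), Cryab (0 with no filter on low counts, -0.02 to 0.03), Myrf (-0.02 to 0.03) and Car2 (-0.01 to 0.05). Mbp did so for antibiotics with saline in adults (-0.04 to 0.14).

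The replicate numbers were not treated as pairing the libraries, by a rule that every same-numbered pair must correlate above 0.1. So strict a rule does not test for a weaker likeness of same-numbered libraries. Over 60 pairs of the same age and number, deviations from the group mean correlated at -0.16 to 0.2 with a median of 0.01, and 6 were above 0.1, against 12 of 240 pairs of the same age with different numbers. Across ages 11 of 80 same-numbered pairs and 16 of 320 others were above 0.1. Of 40 libraries 13 correlated best with their own number out of 5 numbers. With the replicate number as a block, 1 member was called for age on water and morphine, 4 for antibiotics under morphine in adolescents and 4 for antibiotics on average. Depth limits Gjb1 and Nkx6-2 most, with as few as 6 and 11 counts in a library.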
